A study of Mus musculus with 15 samples.

Results

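The 9 genes described here encode receptors that restrain T cells and transcription factors linked to T cell exhaustion and to regulatory cytokine programmes: Tigit, Cd96, Cd160, Btla, Lag3, Havcr2, Cd244a, Tox and Maf. They were picked by gene symbol and are 9 of the 55421 genes in the deposited count files, of which 39155 had a read in at least 1 sample. Naive CD4+CD25-CD44-CD62L+ T cells were injected into Rag2-/- mice, a model of T cell transfer colitis, and 6 weeks later CD4+ T cells of the spleen and of the mesenteric lymph nodes (mLN) were sorted for mRNA sequencing. The donor mice were C57BL/6 with floxed Prkaa1, the gene of the AMPKα1 kinase subunit. KO donors carried CD4-Cre in addition and WT donors did not, so cells of both genotypes carried the floxed allele and were compared as littermates. CD4-Cre acts in thymocytes before the CD4 and CD8 lineages part, so the deletion precedes the transfer. The hosts have no T or B cells of their own but keep NK cells and myeloid cells. The study used mice of 6 to 8 weeks of age unless it states otherwise. Spleen gave 4 samples of each genotype, and mLN gave 4 of KO but 3 of WT cells, where the study had left out 1 sample at quality control. The study describes its groups as groups of mice in 1 experiment, while the labels number the samples without saying whether a number marks the same mouse in both organs.

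Inhibitory receptors are induced by T cell activation and bind ligands on neighbouring cells, and most of them recruit phosphatases or compete with costimulatory receptors. TIGIT and CD96 share the ligand CD155 (Pvr) with the costimulatory receptor CD226, CD160 and BTLA bind the herpesvirus entry mediator (Tnfrsf14), LAG-3 binds MHC class II, TIM-3 (Havcr2) binds galectin-9 among other ligands, and CD244 binds CD48. TOX sustains the exhausted state of chronically stimulated CD8 T cells, and c-MAF drives IL-10 and IL-21 in several kinds of CD4 T cell, among them follicular helper and regulatory T cells.

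The promoters of the 3 receptor genes that differed between the organs in KO cells are shown first, because Tigit, Btla and Cd96 lie within 2.47 Mb of each other on chromosome 16. They run from 250 bases before to 50 bases after the annotated start, from RefSeq on GRCm38.p6, and are printed 5′ to 3′ on the gene's strand. RefSeq promoters were matched for 6 of the 9 genes, namely Tigit, Cd96, Btla, Cd160, Cd244a and Havcr2. Capitals mark matches on either strand to GGAAA (the core of NFAT sites), GTGTGA (a T-box core), TGANTCA (AP-1), TCAAAG (TCF and LEF factors), AAAGGTCA (NR4A factors) or TGCTGA (a MAF half-site).
Tigit promoter, chr16:43664135-43664434, minus strand: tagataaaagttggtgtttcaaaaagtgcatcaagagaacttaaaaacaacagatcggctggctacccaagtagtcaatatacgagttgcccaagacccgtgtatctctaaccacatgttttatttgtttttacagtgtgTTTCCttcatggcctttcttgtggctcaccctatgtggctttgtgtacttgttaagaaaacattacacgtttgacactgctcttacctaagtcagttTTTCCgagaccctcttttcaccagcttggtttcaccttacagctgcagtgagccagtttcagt
Cd96 promoter, chr16:46120199-46120498, minus strand: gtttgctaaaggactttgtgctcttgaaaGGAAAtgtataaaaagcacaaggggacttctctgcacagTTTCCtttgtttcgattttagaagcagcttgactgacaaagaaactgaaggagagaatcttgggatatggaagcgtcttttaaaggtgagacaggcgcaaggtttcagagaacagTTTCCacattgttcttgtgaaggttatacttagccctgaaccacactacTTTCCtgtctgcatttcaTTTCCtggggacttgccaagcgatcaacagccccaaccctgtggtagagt
Btla promoter, chr16:45224087-45224386, plus strand: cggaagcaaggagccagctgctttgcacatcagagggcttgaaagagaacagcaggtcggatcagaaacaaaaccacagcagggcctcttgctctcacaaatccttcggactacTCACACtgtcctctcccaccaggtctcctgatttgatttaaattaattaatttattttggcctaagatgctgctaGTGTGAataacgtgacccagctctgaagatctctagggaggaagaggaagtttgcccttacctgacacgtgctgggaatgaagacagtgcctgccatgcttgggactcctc
In these windows Tigit held the NFAT core at 2 positions and Cd96 at 5, while Btla held the T-box core at 2 positions. The NFAT core is common, with at least 1 match in 61.3% and at least 2 in 26.7% of 32851 mouse promoters of the same length, and 5 or more matches were found in 0.728%. At least 2 T-box cores were found in 1.38% of promoters. The other motifs occur in 14.5% (T-box core), 7.81% (AP-1), 16.0% (TCF and LEF), 1.51% (NR4A) and 19.5% (MAF) of all promoters, and none of them had a match in the Tigit or Cd96 window. These are letter matches in a window, not binding sites, and overlapping or neighbouring motifs were counted separately.

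Reads on genes came to 9363940 to 11283439 per sample. Levels are CPM, a gene's count per 1000000 reads on genes, scaled between samples by edgeR's TMM method (TMM-scaled CPM). The sorted cells carried T cell transcripts in all samples, with Cd4 at 962 to 1302 and Cd3e at 1218 to 1808 TMM-scaled CPM, and the summed level of 12 T cell markers between 9306 and 12592. In the organ tests described below, 3 of these 12 markers were called higher in mLN in WT and 0 lower, beside 20.5% of all genes in either direction. In KO 8 were called higher and 1 lower, beside 25.3%. Their median log2 difference, mLN minus spleen, was 0.27 in both genotypes. Prkaa1 was at 46.6 to 60.6 TMM-scaled CPM in the WT samples and 18.4 to 32.3 in the KO samples, with no overlap. Transcripts of other cells were present at lower levels: the summed NK cell markers lay at 119 to 228 and the summed macrophage and monocyte markers at 55.0 to 442 TMM-scaled CPM, the highest in KO spleen replicate 3. Cd8a was at most 1.62 TMM-scaled CPM in spleen, 0.305 to 8.46 in WT mLN and 16.5 to 23.1 in KO mLN. The other matched markers of CD8 and gamma delta T cells did not follow it. Cd8b1 had a mean of 4.54 in WT mLN and 4.34 in KO mLN, and Trdc of 9.76 and 5.24. Of these 3 markers 0 were called between the genotypes in mLN. The neutrophil markers summed to 155 to 769 in spleen and 23.2 to 105 in mLN. The part of such cells in the results below was not tested.

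Per length of exon, the genes covered a wide span of levels. Cd96 and Tigit were the most abundant, at a mean of 169 and 187 TMM-scaled CPM per kb of exon in WT spleen, 182 and 121 in KO spleen, 244 and 257 in WT mLN and 275 and 188 in KO mLN. The neighbouring levels of Cd96 and Tigit did not separate beyond their SDs in WT spleen and WT mLN, and Cd96 was above Tigit in both KO groups. A middle group followed with means between 11.8 and 42.8 per kb made up of Cd160, Maf, Lag3, Btla and Tox. Havcr2 was lower, with group means of 4.67 to 8.72 per kb, and Cd244a was the lowest in every group at 0.579 to 1.07 per kb. Cd244a rested on 19 to 91 reads per sample, against 3312 to 7629 for Cd96.

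**Figure D1:**
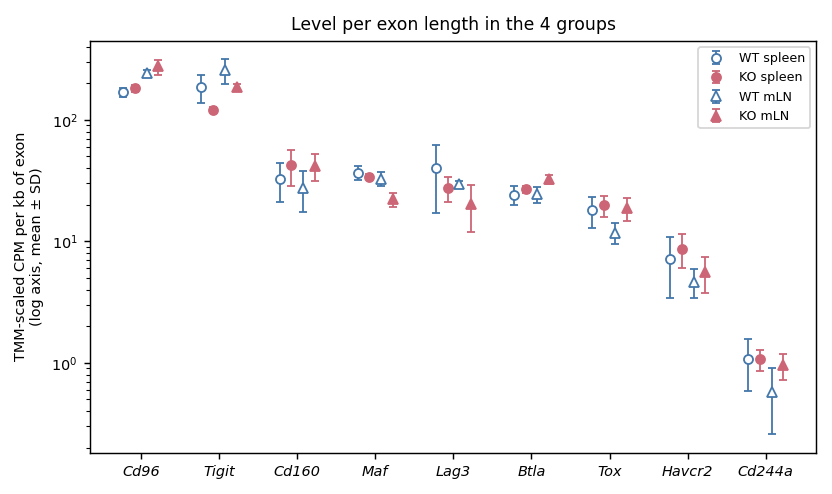
Mean level of each gene per kb of exon (TMM-scaled CPM per kb, log axis, error bars SD) in WT spleen, KO spleen, WT mLN and KO mLN. Cd96 and Tigit sit above 100 in all groups, 5 genes lie between 11.8 and 42.8, and Havcr2 and Cd244a lie below 9.

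Loss of AMPKα1 was compared with WT in each organ by edgeR's quasi-likelihood test over all genes, with a call at a Benjamini-Hochberg adjusted p under 0.05. Of the 9 genes 0 were called in spleen, where 1.30% of all genes tested were called, and 0 in mLN, where 0.641% were. At an unadjusted p under 0.05 edgeR counted 1 of 9 in spleen (20.5% of all genes) and 5 of 9 in mLN (15.7%). The WT and KO samples did not overlap for 1 of the 9 genes in spleen (12.0% of all genes), Tigit, and for 4 of 9 in mLN (14.0%), Tigit, Maf, Tox and Btla. DESeq2, run as an alternative, called Tigit in spleen, where it called 6.13% of all genes, and Tigit, Maf, Tox and Btla in mLN, where it called 4.10%. The organs were compared within each genotype in the same way. In WT 1 of 9 genes was called, with 20.5% of all genes called in either direction and 9.70% called higher in mLN. A fit that pairs same-numbered WT samples, given below, called 4 of 9, beside 30.7% of all genes. In KO 4 of 9 were called, beside 25.3% of all genes: 3 were higher in mLN (11.4% of all genes) and 1 was lower (13.9%). Pairing same-numbered KO samples gave 6 of 9, beside 26.8% of all genes. The organs did not overlap for 1 of 9 genes in WT (31.9% of all genes) and 4 of 9 in KO (28.8%). The genotype and organ comparisons share samples and are not independent of each other.

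**Figure D2:**
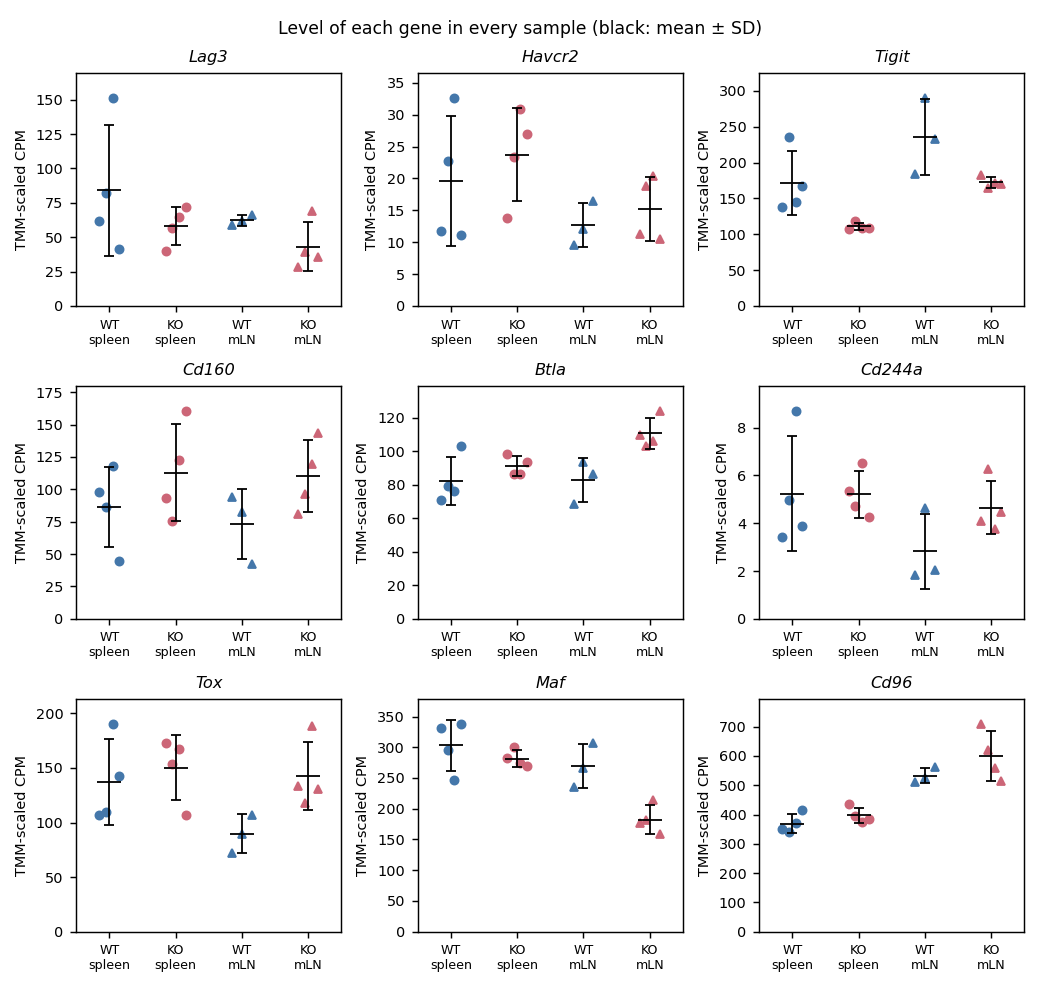
TMM-scaled CPM of each gene in every sample (points) with the mean and SD (black) in WT spleen, KO spleen, WT mLN and KO mLN. KO points lie below all WT points of the same organ for Tigit in both organs and for Maf in mLN, and above them for Btla and Tox in mLN.

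Tigit (ENSMUSG00000071552, chr16:43648867-43664146, minus strand of GRCm38) encodes an inhibitory receptor of T and NK cells that competes with CD226 for CD155. In spleen it was at 138, 236, 145 and 168 TMM-scaled CPM in the WT samples and at 108, 119, 109 and 109 in the KO samples. In mLN the Tigit level was 184, 290.0 and 233 in WT and 183, 165, 172 and 171 in KO. KO and WT did not overlap in either organ, with KO lower, although in mLN the nearest WT and KO samples were almost level, and the 4 KO samples were closely spaced in both organs (SD 5.18 in spleen and 7.33 in mLN, against 44.4 and 52.9 in WT). The log2 difference KO minus WT was -0.63 ± 0.15 (SE, edgeR adjusted p = 0.065) in spleen and -0.45 ± 0.13 (SE, adjusted p = 0.152) in mLN, so Tigit did not pass the test in either organ. With DESeq2 it passed in both, at an adjusted p of 0.00318 in spleen and 0.0436 in mLN, and in spleen it also passed in edgeR when WT replicate 3 was left out (log2 difference -0.70, adjusted p = 0.0461). Between the organs Tigit was higher in mLN than in spleen in KO cells, by 0.61 ± 0.07 on the log2 scale (SE, edgeR adjusted p = 7.06e-05), with no overlap. In WT cells the difference was 0.45 ± 0.20 (SE, adjusted p = 0.150) in this unpaired test and the organs overlapped. Tigit was nevertheless higher in mLN in each same-numbered WT pair, and the paired fit given below called it in WT. In a bulk sample fewer cells that express a gene and less of its RNA per cell cannot be told apart.

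Regulatory T cell (Treg) markers had a lower mean level in KO in both organs, as Tigit did. The summed level of 8 Treg markers was 614 to 1040 TMM-scaled CPM in WT spleen, 457 to 619 in KO spleen, 890.2 to 1731 in WT mLN and 535 to 937 in KO mLN. Within WT mLN, the sample with the highest Tigit level, replicate 2, was also the highest in Treg markers, while in WT spleen replicate 2 was the highest in Tigit and replicate 4 in Treg markers. Of the 8 Treg markers 2 were called lower in KO spleen, Il2ra (log2 difference -1.16) and Ctla4 (-0.78), and 0 in KO mLN, where all 8 had a negative log2 difference with a median of -1.005. Their part in the level of Tigit was not tested.

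**Figure D3:**
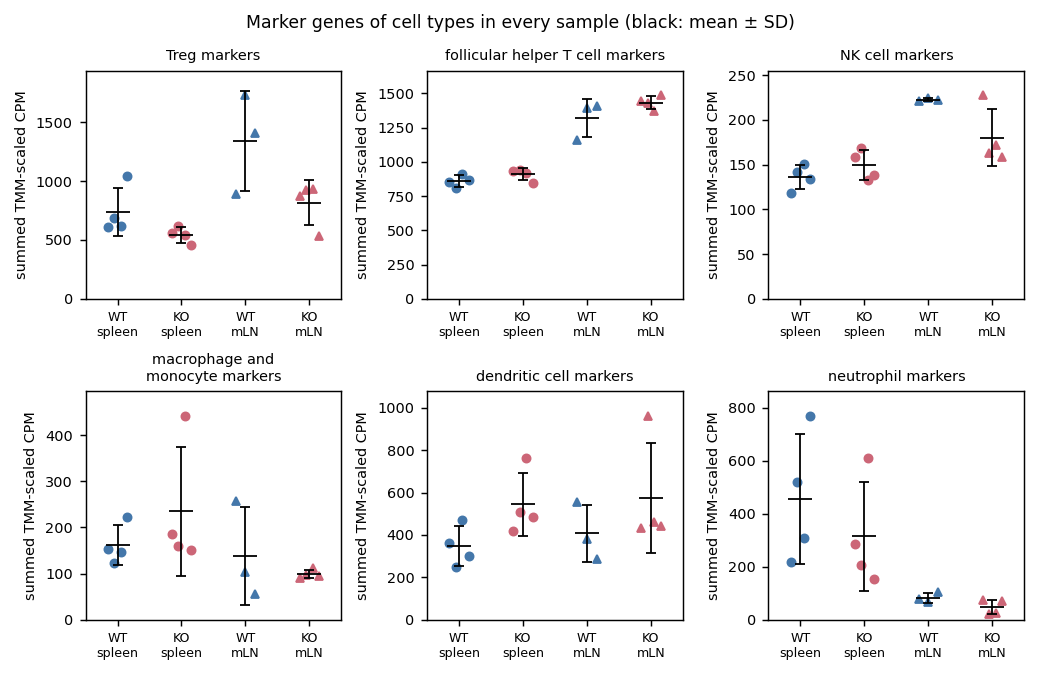
Summed TMM-scaled CPM of marker genes of 6 cell types in every sample (points) with the mean and SD (black). The mean of the Treg markers is lowest in KO spleen and highest in WT mLN, NK cell markers are higher in mLN than in most spleen samples, and neutrophil markers are higher in spleen.

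Cd96 (ENSMUSG00000022657, chr16:46035657-46120251, minus strand) encodes a second receptor for CD155. It was at 349.6, 342, 369.6 and 415 TMM-scaled CPM in WT spleen, and at 512, 523 and 562 in WT mLN. In KO cells it was at 435, 395, 376 and 385 in spleen and at 709.6, 620.4, 559 and 513 in mLN. All mLN samples were above all spleen samples of either genotype, while WT and KO overlapped in each organ. The mLN minus spleen difference was 0.52 ± 0.09 on the log2 scale in WT (SE, edgeR adjusted p = 0.00487) and 0.57 ± 0.10 in KO (SE, adjusted p = 0.00135), and it passed the test in every fit that left out 1 sample in both genotypes. KO minus WT was 0.11 ± 0.08 in spleen (SE, edgeR adjusted p = 0.493) and 0.17 ± 0.11 in mLN (SE, adjusted p = 0.486). CD96 is also a receptor of NK cells, and the summed NK cell markers were 119 to 169 in spleen and 158 to 228 in mLN. The sum follows Gzma, a granzyme gene, whose group means were 29.2 in WT spleen, 32.5 in KO spleen, 104 in WT mLN and 67.9 in KO mLN, and which was called higher in mLN in both genotypes. Klrd1 was called higher in WT. Of the 8 NK cell markers tested, 4 had a negative mLN minus spleen difference in WT (median -0.00) and 6 in KO (median -0.21), and 0 were called lower. The NK receptor gene Ncr1 was at 0.480 to 8.37 TMM-scaled CPM over all samples. Klra4 and Klra8, genes of NK cell receptors, had at most 7 reads in any sample.

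Of the partners that these receptors share, Cd226 had a mean of 295 TMM-scaled CPM in WT spleen, 329 in KO spleen, 226 in WT mLN and 264 in KO mLN, and Pvr stayed between 31.1 and 32.0 in the 4 group means. Neither was called in any of the 4 comparisons.

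Btla (ENSMUSG00000052013, chr16:45224315-45257670, plus strand) encodes a receptor that recruits the phosphatases SHP-1 and SHP-2 once bound to the herpesvirus entry mediator. The Btla level was 70.8, 79.3, 76.4 and 103 TMM-scaled CPM in WT spleen and 98.6, 86.6, 86.5 and 93.7 in KO spleen, and these overlapped. In mLN it was 68.3, 93.8 and 86.4 in WT and 109.8, 103, 106 and 124 in KO. All KO mLN samples were above all other samples with the exception of WT spleen replicate 4, which was level with the lowest of them. KO minus WT in mLN was 0.42 ± 0.12 on the log2 scale (SE, edgeR adjusted p = 0.152; DESeq2 adjusted p = 0.0451) and did not pass in edgeR, and in spleen it was 0.15 ± 0.11 (SE, adjusted p = 0.501). The organs differed in KO, by 0.26 ± 0.08 (SE, edgeR adjusted p = 0.0356), and had nearly the same mean in WT (82.5 in spleen and 82.9 in mLN). This call for KO cells was close to its limit. It was lost without KO spleen replicate 2 (0.23), without KO spleen replicate 3 (0.23), without KO spleen replicate 4 (0.27) and without KO mLN replicate 4 (0.21), with all 15 samples in 1 fit (edgeR adjusted p = 0.0918) and without the filter on low counts (edgeR adjusted p = 0.0955). BTLA is also made by B cells and dendritic cells. The summed level of 8 B cell markers was 53.9 to 144 TMM-scaled CPM in KO spleen and 217 to 318 in KO mLN, 54.9 to 192 in WT spleen and 193 to 566 in WT mLN. In KO 2 of 4 tested B cell markers were called higher in mLN, Ighm (1.62) and Pax5 (1.66), while the B cell gene Ms4a1 had 0 reads in every mLN sample. In KO 3 of 9 tested dendritic cell markers were called higher in mLN, Ccl22, Siglech and Itgax, and Xcr1 was called lower. Between genotypes in mLN, 1 of 4 tested B cell markers was called higher in KO and 0 lower, beside 0.641% of all genes called. Pax5 had a mean of 0.133 TMM-scaled CPM in WT mLN and 3.02 in KO mLN. The part of these markers in the level of Btla was not tested.

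The interval of chromosome 16 that spans Tigit, Btla and Cd96 held 55 annotated genes, of which 24 were tested in KO. This interval was chosen after the values were seen and carries no test. In KO cells 5 of the 24 were called higher in mLN, Tigit, Slc35a5, Btla, Cd200 and Cd96, and 0 were called lower. Over all genes 11.4% were called higher and 13.9% lower. Tigit, Btla and Cd96 define the interval, so the count of 5 holds genes picked for it and cannot be set against that share. Apart from them, only Slc35a5 and Cd200 were called. In WT cells 25 genes were tested, of which Abhd10 and Cd96 were called higher and Usf3 lower, with 9.70% of all genes called higher. The same limit holds there for Cd96.

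Cd160 (ENSMUSG00000038304, chr3:96798763-96829351, minus strand), which encodes the other receptor for the herpesvirus entry mediator here, varied widely between samples of a group. It was at 98.0, 86.3, 118 and 44.4 TMM-scaled CPM in WT spleen and 93.2, 75.5, 123 and 160.5 in KO spleen. In mLN it was at 94.4, 82.7 and 42.3 in WT and 80.8, 96.6, 119.9 and 144 in KO. WT and KO overlapped in both organs, and the organs overlapped in both genotypes. KO minus WT was 0.38 ± 0.29 on the log2 scale in spleen (SE, edgeR adjusted p = 0.492) and 0.59 ± 0.26 in mLN (SE, adjusted p = 0.299). In both organs WT replicate 4 was the lowest of its group and KO replicate 4 the highest. An exon of Cd160 overlaps one of Pdzk1 on the opposite strand, and the strand that was counted is not given in the sources used here. The shared ligand gene Tnfrsf14 had group means of 7.04 to 8.37 TMM-scaled CPM and was not called in any of the 4 comparisons.

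Lag3 (ENSMUSG00000030124, chr6:124904361-124911705, minus strand) encodes a CD4-like receptor for MHC class II. Its level in spleen was 61.5, 82.1, 151 and 41.2 TMM-scaled CPM in WT and 39.7, 56.7, 64.8 and 71.7 in KO. In mLN the Lag3 level was 58.7, 61.8 and 66.4 in WT and 28.5, 39.5, 69.2 and 35.7 in KO. The mean was lower in KO in both organs, but the groups overlapped, in mLN through KO replicate 3 alone. KO minus WT was -0.53 ± 0.34 on the log2 scale in spleen (SE, edgeR adjusted p = 0.409) and -0.53 ± 0.25 in mLN (SE, adjusted p = 0.334). The spleen value rested on WT replicate 3 in large part, since it was -0.08 without that sample, and -0.76 to -0.39 without any other. Between the organs Lag3 had a log2 difference of -0.44 ± 0.36 in WT (SE, edgeR adjusted p = 0.420) and -0.45 ± 0.25 in KO (SE, adjusted p = 0.222). In KO it passed when KO mLN replicate 3 was left out (-0.77, adjusted p = 0.0166). A fit that pairs same-numbered KO samples also called Lag3 lower in mLN.

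Havcr2 (ENSMUSG00000020399, chr11:46454935-46481255, plus strand), the gene of TIM-3, was at 11.8, 22.8, 32.6 and 11.1 TMM-scaled CPM in WT spleen and 13.8, 23.4, 30.8 and 26.9 in KO spleen. In mLN it was at 9.60, 12.1 and 16.5 in WT and 11.3, 18.8, 20.4 and 10.6 in KO. Genotypes and organs overlapped throughout. KO minus WT was 0.27 ± 0.35 on the log2 scale in spleen (SE, edgeR adjusted p = 0.702) and 0.26 ± 0.29 in mLN (SE, adjusted p = 0.714). The mLN minus spleen difference was -0.63 ± 0.38 in WT (SE, edgeR adjusted p = 0.275) and -0.66 ± 0.27 in KO (SE, adjusted p = 0.0988). The KO difference passed without KO spleen replicate 1 (-0.84, adjusted p = 0.0353). It was also called, lower in mLN, in a fit that pairs same-numbered KO samples. The organ means of the TIM-3 ligand gene Lgals9 in WT were 114 TMM-scaled CPM in spleen and 158 in mLN, a log2 difference of 0.47 ± 0.11 (SE, edgeR adjusted p = 0.0162). TIM-3 is also made by macrophages and dendritic cells, whose summed markers were 55.0 to 442 and 251 to 962 TMM-scaled CPM over all samples. In KO cells 7 of 11 tested macrophage and monocyte markers were called lower in mLN and 0 higher, with a median log2 difference of -1.49. In WT cells 1 of 11 was called lower and 0 higher (median -0.33). Of the dendritic cell markers in KO, 3 of 9 tested were called higher in mLN and 1 lower (median 0.22). In WT 2 of 8 were called higher and 0 lower (median 0.24). The part of these markers in the level of Havcr2 was not tested.

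Cd244a (ENSMUSG00000004709, chr1:171559193-171609746, plus strand) encodes 2B4, a SLAM family receptor for CD48 that is abundant on NK cells. It was at 3.42, 4.95, 8.70 and 3.89 TMM-scaled CPM in WT spleen and 5.35, 4.71, 6.53 and 4.24 in KO spleen. In mLN it was at 1.82, 4.62 and 2.03 in WT and 4.09, 6.26, 3.76 and 4.48 in KO. The groups overlapped in all comparisons, and at 19 to 91 reads a sample only large differences could have been seen. KO minus WT was -0.02 ± 0.29 on the log2 scale in spleen (SE, edgeR adjusted p = 0.982) and 0.71 ± 0.41 in mLN (SE, adjusted p = 0.441). Its ligand gene Cd48 was far more abundant and was called higher in mLN in both genotypes, at a log2 difference of 0.57 ± 0.12 in WT (SE, edgeR adjusted p = 0.0129) and 0.57 ± 0.08 in KO (SE, adjusted p = 0.000296).

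Tox (ENSMUSG00000041272, chr4:6686353-6991557, minus strand) encodes the HMG-box factor that sustains exhaustion in CD8 T cells. In spleen it was at 106, 109, 190.4 and 143 TMM-scaled CPM in WT and 173, 154, 168 and 107 in KO, which overlapped. In mLN the Tox level was 71.8, 89.9 and 107 in WT and 134, 118, 188 and 131 in KO. All KO mLN samples were above all WT mLN samples. KO minus WT in mLN was 0.67 ± 0.18 on the log2 scale (SE, edgeR adjusted p = 0.118), the largest positive difference of the genes apart from that of Cd244a, and it did not pass in edgeR but did with DESeq2 (adjusted p = 0.00781). In spleen it was 0.13 ± 0.20 (SE, edgeR adjusted p = 0.766). The test of whether the genotype difference itself changed between organs gave 0.54 ± 0.29 (SE, edgeR adjusted p = 1). In WT Tox had a log2 difference of -0.62 ± 0.22 between mLN and spleen (SE, edgeR adjusted p = 0.0712), and in KO of -0.09 ± 0.17 (SE, adjusted p = 0.724). These tests were unpaired, and the paired fit given below called Tox in WT. Gm11802, an antisense gene that overlaps Tox exons on the opposite strand, was counted as a gene of its own. How reads in the overlap were assigned was not tested.

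Maf (ENSMUSG00000055435, chr8:115682942-115707794, minus strand) encodes c-MAF, a bZIP factor. Its level in spleen was 332, 295, 247 and 338 TMM-scaled CPM in WT and 283, 301, 274 and 269 in KO. In mLN it was 235, 267 and 307 in WT and 176, 182, 213 and 158 in KO. The KO mLN samples were the 4 lowest of all 15, and WT and KO overlapped in spleen. KO minus WT in mLN was -0.56 ± 0.12 on the log2 scale (SE, edgeR adjusted p = 0.0729) and did not pass. It passed with DESeq2 (adjusted p = 0.00197) and when all 15 samples shared 1 fit (adjusted p = 0.0193), a fit that called 3.24% of all genes. Between organs Maf was lower in mLN in KO cells, at -0.65 ± 0.09 (SE, edgeR adjusted p = 0.00043) with no overlap, and this passed in every fit that left out 1 sample. In WT the organ difference was -0.18 ± 0.13 (SE, edgeR adjusted p = 0.380) in this unpaired test, while the paired fit given below called Maf lower in mLN in WT as well. The difference between these organ effects was -0.46 ± 0.16 (SE), with an unadjusted p of 0.0116 and an adjusted p of 1 in edgeR. Of the 9 genes 0 were called in that test of genotype by organ, as were 0% of all genes, and Maf alone had an unadjusted p under 0.05 (1 of 9, against 4.22% of all genes). DESeq2 called 0 of the 9 genes in the same test. An exon of Maf overlaps one of Gm15655 on the opposite strand.

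**Figure D4:**
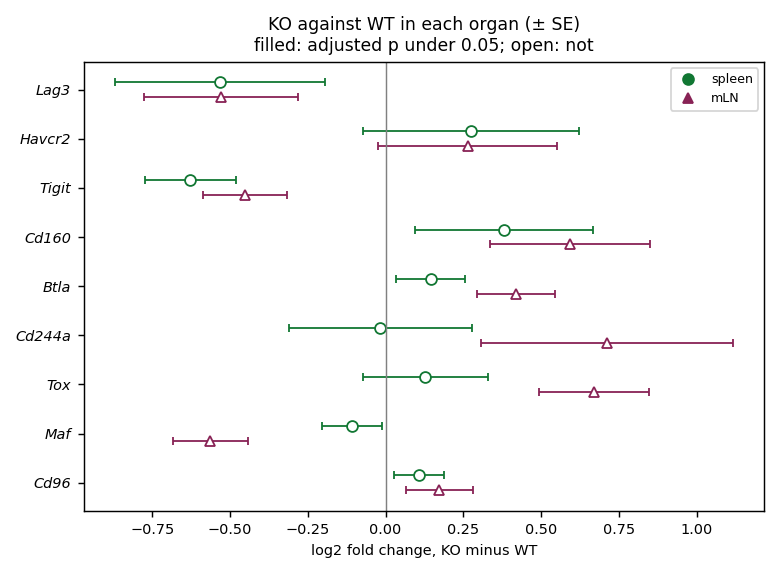
Log2 difference KO minus WT (points, error bars SE) of each gene in spleen and mLN. All points are open because no gene passed an adjusted p of 0.05, with Tigit lowest in spleen (-0.63), Maf lowest in mLN (-0.56) and Tox at 0.67 in mLN.

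For the organ comparison in WT, samples with the same replicate number deviated together, so the paired fit with the replicate block is set beside it. It compares the 3 numbers present in both organs and therefore leaves out WT spleen replicate 3. It called 4 of the 9 genes, beside 30.7% of all genes: Cd96, Tigit (0.39, edgeR adjusted p = 0.00269), Tox (-0.42, adjusted p = 0.00409) and Maf (-0.26, adjusted p = 0.0379). The Lag3 difference in WT moved from -0.44 to 0.05 in that fit. WT spleen replicate 3, which it leaves out, had the highest Lag3 level, at 151 TMM-scaled CPM. Unpaired WT fits that left out 1 sample reached 0.012 for Lag3 and -0.42 for Tox.

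**Figure D5:**
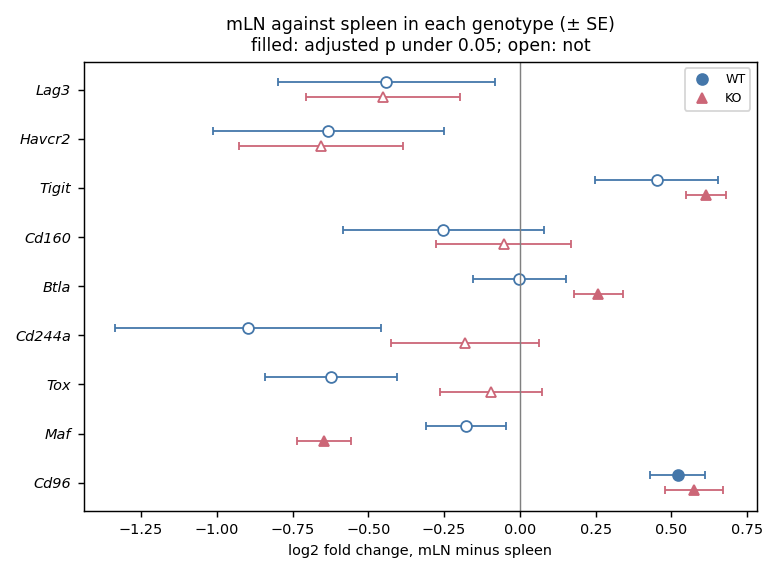
Log2 difference mLN minus spleen (points, error bars SE) of each gene in WT and KO, without the replicate block. Filled points passed an adjusted p of 0.05: Cd96 in both genotypes, and Tigit, Btla and Maf in KO.

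Other genes of these pathways were taken from 5 lists. Of 15 ligands and partners of the receptors, 12 were tested in spleen and 10 in mLN. In mLN 1 was called lower in KO, Fgl2, which encodes a fibrinogen-like immunoregulatory protein, at -0.83 ± 0.14 on the log2 scale (SE, edgeR adjusted p = 0.0362), and 0 were called higher, while 0 were called in spleen. The median log2 difference KO minus WT of the tested list was -0.02 in spleen and 0.10 in mLN, with 0.00 for all genes in both. Between organs Cd48 and Hmgb1 were called higher in mLN in both genotypes and Lgals9 in WT. Ceacam1 was called lower in both genotypes, at group means of only 0.212 to 1.88 TMM-scaled CPM.

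Of 16 other inhibitory receptors, 13 were tested in spleen and 1 was called lower in KO, Ctla4, the receptor that competes with CD28, at -0.78 ± 0.14 (SE, edgeR adjusted p = 0.0391). In mLN 14 were tested and 0 were called in either direction. The list's median log2 difference was -0.14 in spleen and -0.18 in mLN. Pdcd1, the gene of PD-1, was not called, with group means of 177 TMM-scaled CPM in WT spleen, 162 in KO spleen, 125 in WT mLN and 156 in KO mLN. Ctla4 and Nt5e (CD73) were called higher in mLN in both genotypes, with differences for Ctla4 of 1.57 in WT and 1.07 in KO, and for Nt5e of 1.26 and 1.27. Procr, at 0.248 TMM-scaled CPM in spleen and 2.10 in mLN, was called higher in WT, and Pecam1 in KO (0.38).

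Among 16 tested genes of the SLAM family and its adaptors, 0 were called in spleen and 2 were called higher in KO mLN: Ptpn11, which encodes SHP-2, a phosphatase downstream of several of the receptors, at 0.60 ± 0.11 (SE, edgeR adjusted p = 0.0447), and the inositol phosphatase gene Inpp5b at 0.45 ± 0.09 (SE, adjusted p = 0.0477). The medians were 0.15 in spleen and 0.19 in mLN. Between organs the largest difference in the list was that of Bag6, a chaperone gene and not a SLAM family receptor. It was -1.48 ± 0.12 in WT (SE, edgeR adjusted p = 0.000157) and -1.56 ± 0.08 in KO (SE, adjusted p = 6.19e-07). Slamf6 was called higher in mLN in both genotypes (1.07 in WT and 1.18 in KO), Sh2d1a (0.41) and Ly9 (0.35) were called higher in KO, Inpp5d (-0.39) and Slamf1 (-0.47) lower in KO, and Ptpn11 (-0.35) lower in WT. The gene span of Ly9 overlaps that of Cd244a without shared exons.

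Of 28 exhaustion and effector transcription factors, 2 were called higher in KO in spleen and 0 lower. These were Id3, an inhibitor of E proteins (1.36 ± 0.23, SE, edgeR adjusted p = 0.037), and Eomes, a T-box factor (0.93 ± 0.17, SE, adjusted p = 0.0444). In mLN the same 2 genes were called higher, Id3 at 1.23 ± 0.22 (SE, edgeR adjusted p = 0.0414) and Eomes at 1.13 ± 0.21 (SE, adjusted p = 0.0422), and Id2 was called lower at -0.53 ± 0.09 (SE, adjusted p = 0.0392). The list's median log2 difference was 0.24 in spleen and 0.27 in mLN. Between organs the calcium-regulated factors Nfatc1 and Nfatc2 were called lower in mLN, at -0.71 and -1.37 in WT and -0.68 and -1.26 in KO, and Lef1 and Id3 were called higher in both genotypes. In KO Tbx21, Id2, Egr3 and Nr4a2 were also called lower, and Tcf7 and Batf higher, which made 6 lower and 4 higher of 28.

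Among 15 cytokines, receptors and related genes of Maf-expressing T cells, 1 was called higher in KO mLN, Cxcr5, the chemokine receptor of follicular helper T cells, at 1.55 ± 0.22 (SE, edgeR adjusted p = 0.0291), with 0 called in spleen and medians of 0.14 in spleen and -0.11 in mLN. Il10, a cytokine gene that c-MAF activates, had group means of 9.62 TMM-scaled CPM in WT spleen, 6.54 in KO spleen, 6.91 in WT mLN and 3.87 in KO mLN, and was not called in any of the 4 comparisons. Icos was called higher in mLN in both genotypes (1.21 in WT and 1.28 in KO), Il22 in WT (1.85), and Ifng was called lower in mLN in KO (-0.78). The summed follicular helper T cell markers were 806 to 938 TMM-scaled CPM in spleen and 1162 to 1487 in mLN, higher in every mLN sample. The sum follows Icos, whose group means were 368 in WT spleen, 296 in KO spleen, 858 in WT mLN and 727 in KO mLN. Of the 9 follicular helper T cell markers tested, 3 had a negative mLN minus spleen difference in WT (median 0.21). In KO 2 did (median 0.41). Called higher in mLN were 1 in WT and 3 in KO, and 0 were called lower. Cxcr5 and Cd200 among these markers were called higher in KO mLN than in WT mLN, and their part in the levels of Btla, Tox and Maf was not tested.

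The summed level of the 9 genes moved little, at 1171 to 1339 TMM-scaled CPM in WT spleen, 1216 to 1249 in KO spleen, 1236 to 1425 in WT mLN and 1291 to 1452 in KO mLN. Over the 15 samples the 36 pairs of genes had Pearson's r of log2 CPM from -0.68 (Maf and Cd96) to 0.66 (Lag3 and Havcr2), a description that includes the differences between groups. Among 15438 genes the ones most like Cd96 over the 15 samples were Stk17b (r = 0.957), Cdipt (0.955) and Sept6 (0.947). Those most like Tigit were Wdr43 (0.927), Slc35b3 (0.921) and Myc (0.920), and those most like Maf were Gm47092 (0.921), Pias3 (0.911) and Rph3al (0.908). For Tox the antisense gene Gm11802 came first (0.909), ahead of Cntln (0.852) and Fam84a (0.840). Cd160 was most like Ccdc59 (0.928), Tfdp1 (0.926) and Gm27747 (0.923), and Btla most like Ces2c (0.879), Capn3 (0.877) and Cd83 (0.867). The closest genes were Gm13031 (0.860), Litaf (0.825) and Vamp2 (0.824) for Lag3, Atp8b2 (0.845), Zfp787 (0.834) and Zdhhc7 (0.799) for Havcr2, and Slc37a2 (0.861), Zbtb3 (0.848) and Gm22249 (0.845) for Cd244a. The samples of a group share genotype and organ, so these values carry no p.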

How the data were processed

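RNA of CD4+ T cells from 15 samples was sequenced as single-end reads from NEBNext Single Cell/Low Input libraries. The authors aligned them with STAR 2.6.1a in 2-pass mode to GRCm38 with GENCODE M23 and deposited raw counts of reads per gene, without normalization, which they had tested with DESeq2 1.22.2. Replicates were not pooled. The tally rows of the files name no gene and were left out of library sizes and tests. By these rows, the share of uniquely aligned reads outside genes was 58.4% to 63.4%. The counted strand is not given in the sources used here. Reads carry no molecular identifiers, so copies made by amplification cannot be told from separate molecules. The precision of a level is therefore not limited by counting error only.

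GENCODE M21, on the same build, gave symbols, coordinates and exon lengths and matched 55240 of 55421 genes. The listed markers Trgc1, Trgc2 and Trgc4 were not matched. From the deposited counts, each comparison was tested with edgeR 4.0.16 in R 4.3.3 on its own 2 groups (filter on low counts, TMM, quasi-likelihood test, Benjamini-Hochberg adjustment over all genes tested, call at an adjusted p under 0.05), and genotype by organ over all 15 samples. An SE is the absolute log2 fold change divided by the square root of the quasi-likelihood F. Printed levels use TMM factors of all 15 samples. Likeness between genes used log2 CPM with a prior count of 2. The procedure was tested on simulated counts.

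The 9 genes, the gene lists and the tests were chosen with earlier results of these data known. Named are the 9 genes, Prkaa1, the genes of the pathway lists called in a comparison (at most 6 per list and comparison, by p) and the 3 genes most like each of the 9. Called genes of the cell type marker lists are named only in part, and the list of naive and memory T cell markers is not described. Named outside this rule, with values seen, were Cd3e, Cd4, Cd226, Pvr, Tnfrsf14, Pdcd1, Il10, Ncr1, Cd8a, Cd8b1, Trdc, Klra4, Klra8, Ms4a1 and Slamf1. So were the transcription factors beyond the first 6 and the genes of the chromosome 16 interval. Replicate numbers come from the sample labels. After removal of the group means, same-numbered WT samples of both organs correlated across genes (r of 0.24 to 0.29 in 3 pairs, each above 0.1), so they were taken as pairs. The alternatives tried were DESeq2 1.42.0, RLE size factors, library totals alone, all 15 samples in 1 fit, no filter, a minimum of 10 counts per sample, the replicate block, an absolute log2 fold change above 1 as well, and each sample left out in turn.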

Additional observations from a re-analysis of the deposited data

Results flagged for a closer look

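The level of Tigit in KO spleen replicate 2, 119 TMM-scaled CPM, stood apart from the other 3 KO spleen samples by a gap that exceeded Dixon's critical value. The 4 samples of that group lay within 1.10 times of each other, so the gap was small beside the difference from WT. Of the 27 groups of 4 samples examined this way 1 was marked, and chance marks about 1 in 20 groups.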

How the results depend on the processing

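Counts of genes called between KO and WT depended on the settings. In spleen edgeR called 185 genes, against 840 with DESeq2, 1422 without the filter, 85 with all 15 samples in 1 fit, 17 with the replicate block and 64 with a fold change minimum. In mLN it called 92, against 588, 913, 500, 1 and 47 in the same order. Of the 9 genes, 0 were called in spleen, against 1 with DESeq2 (6.13% of all genes) and 3 without the filter (4.03%), and 0 in mLN, against 4 (4.10%), 6 (2.71%) and 1 with all 15 samples in 1 fit (3.24%). Between organs in WT, 1 of the 9 was called (20.5% of all genes), against 2 with DESeq2 (23.4%), 5 without the filter (10.8%), 2 with all samples in 1 fit (22.6%), 4 with the replicate block (30.7%) and 0 with the fold change minimum, which also lowered the calls over all genes from 2980 to 723. In KO the fold change minimum lowered them from 3602 (25.3% of all genes) to 763 (5.36%) and the 9 genes' calls from 4 to 0. For genotype by organ 0 genes were called, against 4 with DESeq2, 112 without the filter and 3 with the replicate block. The cause of these differences was not tested. Apart from Tigit, Tox and Maf between organs in WT, the replicate block changed no other call of the 9 genes but those of Lag3 and Havcr2 between organs in KO (6 of 9 called, beside 26.8% of all genes). Same-numbered KO samples of both organs had r from 0.03 to 0.26 (mean 0.12), against -0.17 to 0.10 (mean -0.04) for differently numbered ones. These ranges overlap and do not settle whether a number marks the same mouse there. Between genotypes r was -0.21 to 0.15 in spleen and -0.05 to 0.00 in mLN, and the samples there share only a number.

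Leaving out 1 sample gave 12 to 324 called genes in spleen, 4 to 117 in mLN, 1816 to 2780 between organs in WT, 2631 to 3669 in KO and 0 to 0 for genotype by organ. Of the 9 genes it gave 0 to 1 calls in spleen (0.0831% to 2.24% of all genes) and 0 to 0 in mLN (0.0269% to 0.827%). Between organs it gave 1 to 2 in WT (12.7% to 19.5% of all genes) and 3 to 5 in KO (18.1% to 25.2%), and for genotype by organ 0 to 0 (0%). In WT the second call was Tigit without WT spleen replicate 2 (0.64, adjusted p = 0.0419).

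Small log2 differences changed sign. KO minus WT of Cd244a in spleen became 0.00091 without the filter and 0.048 with the replicate block. Between organs in WT, Btla became 0.0014 without the filter and 0.0066 with all samples in 1 fit, and Lag3 became 0.054 with the replicate block. For genotype by organ, Lag3 became 0.00071 with DESeq2 and 0.025 with library totals, and Havcr2 became 0.015 with library totals. With 1 sample left out, values crossed zero for Cd244a in spleen (-0.17 to 0.34), for Lag3 (-0.67 to 0.012), Cd160 (-0.47 to 0.019) and Btla (-0.11 to 0.13) between organs in WT, for Cd160 in KO (-0.21 to 0.16), and for genotype by organ for Lag3 (-0.45 to 0.22), Havcr2 (-0.38 to 0.21), Tigit (-0.020 to 0.35), Cd160 (-0.069 to 0.43) and Cd96 (-0.029 to 0.13). None of these values passed the test.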
